A study of Mus musculus with 12 samples.

Results

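The 10 genes described here encode core subunits of NuRD, the nucleosome remodelling and deacetylase complex with which Ikaros associates. They are the ATPases Chd3 and Chd4, the metastasis-associated scaffolds Mta1, Mta2 and Mta3, the deacetylases Hdac1 and Hdac2, Mbd3, and the histone chaperones Rbbp4 and Rbbp7. They were taken by symbol, each represented by its brightest probe set (by the mean of the 12 arrays), and they are 10 of the 18193 genes measured. The study compared follicular B cells of wild-type (WT) mice with those of mice carrying the IkL/L genotype, which the submitters call Ikaros-deficient, at rest and after crosslinking of the B cell receptor. All mice were 6 weeks old and of C57Bl/6 background, and splenic cells were sorted as B220+CD23hiCD21lo. Cells of both genotypes were kept for 3 h without stimulus (unstimulated), or for 3 h or 12 h with goat F(ab')2 fragments against mouse IgM at 10 μg/ml, which gave 6 groups of 2 Affymetrix arrays. The unstimulated cells were cultured for 3 h only, so at 12 h the stimulus and the longer culture cannot be told apart. The labels do not say how many mice gave each sample, nor which cells of the IkL/L mice lack Ikaros. The series counts 2 independent experiments, and p-values reflect only the spread among these samples, which may be partly technical.

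NuRD couples an ATPase that moves nucleosomes to enzymes that remove acetyl groups from histone tails, so that a single complex can close or re-set chromatin at promoters and enhancers. The MTA proteins hold the deacetylases, the RBBP proteins bind histones, and MBD3 or its relative MBD2 joins the deacetylase module to the remodelling module. In lymphocytes a large share of the CHD4 protein is found in complexes with Ikaros family zinc finger factors, which bring it to lymphoid genes. MTA3 is known in B cells as the NuRD subunit that works with BCL6, the factor that holds the germinal center program.

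Values are log2 signals, so a step of 1 is a doubling of signal, and a signal under 4.21 was treated as too dim to tell from background. Levels are compared within a gene only, since probe sets differ in brightness. Differences were tested with limma over all 18193 genes, and "rose" and "fell" are used where the Benjamini-Hochberg adjusted p was under 0.05. Array medians lay between 3.12 and 3.21, which the submitters' normalization sets. Replicate arrays correlated at 0.99 to 0.994 across the 18193 genes, which are not independent replicates. B cell markers were present on every array, with the mean of the 7 measured markers between 10.1 and 10.2 in unstimulated WT cells and between 8.25 and 8.75 in IkL/L cells after 12 h. Of the T cell markers, 5 of 6 were under the floor on all 12 arrays. So were 3 of 3 NK cell and 3 of 6 myeloid markers. Of 4 plasma cell genes, Jchain ranged from 3.58 to 8.68 and Xbp1 from 8.29 to 9.89. The others, Sdc1 and Prdm1, were under the floor on 9 and 10 arrays. The neutrophil genes S100a8 and S100a9 ranged from 3.42 to 7.26 and from 2.70 to 6.47, and the dendritic cell genes Flt3 and Zbtb46 from 3.98 to 6.06 and from 3.76 to 6.70. In sorted bulk cells, fewer cells of a type and less RNA per cell cannot be told apart.

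The array of unstimulated IkL/L replicate 1 was the lowest of the 12 for 5 of the 10 genes (Chd3, Chd4, Mta1, Mta2 and Mbd3), while it was the lowest for 7.81% of all genes and for 11.7% of the 7020 genes at least as bright on average as the dimmest member. Replicate 1 was lower than replicate 2 in all 6 groups for Mta2, and higher in all 6 groups for Hdac2. Results that rest on 1 array are given with and without it.

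The promoters of the 4 members that rose after stimulation at both times in both genotypes are shown first, because these genes moved together. Each line gives the 250 bases upstream of the annotated start, 5' to 3' on the gene's strand, from the RefSeq promoter table (GRCm38.p6), with GC boxes (GGGCGG, or CCGCCC on the other strand) in capitals.
Mbd3: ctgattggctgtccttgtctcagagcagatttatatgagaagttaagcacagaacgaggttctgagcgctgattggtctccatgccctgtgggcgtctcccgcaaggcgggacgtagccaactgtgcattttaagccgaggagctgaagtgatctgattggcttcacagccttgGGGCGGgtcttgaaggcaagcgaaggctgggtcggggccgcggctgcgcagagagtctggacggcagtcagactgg
Mta1: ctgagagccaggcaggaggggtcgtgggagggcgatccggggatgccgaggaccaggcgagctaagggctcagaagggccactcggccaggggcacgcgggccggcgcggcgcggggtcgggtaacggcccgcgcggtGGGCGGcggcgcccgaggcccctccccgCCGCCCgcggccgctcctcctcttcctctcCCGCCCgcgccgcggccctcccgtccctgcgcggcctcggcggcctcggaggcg
Hdac2: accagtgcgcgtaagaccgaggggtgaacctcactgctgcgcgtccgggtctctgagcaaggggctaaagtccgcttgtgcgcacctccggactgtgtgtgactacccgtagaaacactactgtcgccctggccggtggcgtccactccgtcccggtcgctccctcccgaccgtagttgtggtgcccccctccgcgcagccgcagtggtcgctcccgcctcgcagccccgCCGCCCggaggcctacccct
Rbbp7: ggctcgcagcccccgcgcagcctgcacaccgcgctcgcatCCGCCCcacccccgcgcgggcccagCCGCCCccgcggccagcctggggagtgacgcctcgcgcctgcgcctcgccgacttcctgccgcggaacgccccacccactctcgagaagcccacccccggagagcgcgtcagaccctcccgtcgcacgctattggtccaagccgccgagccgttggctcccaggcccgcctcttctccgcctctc
These windows lie at chr10:80399532-80399781 on the minus strand for Mbd3, and on the plus strand at chr12:113098028-113098277 for Mta1, chr10:36974294-36974543 for Hdac2 and chrX:162760122-162760371 for Rbbp7. They differ in base composition, from 57.6% G and C in Mbd3 to 68.8% in Hdac2, 76.4% in Rbbp7 and 80.8% in Mta1. Of the 10 members, 7 had a window in the table. A GC box on either strand was present in 7 of these 7, against 32.7% of 32851 promoter windows of the same length. Members were counted by gene, and Chd4 had more than 1 window, each with a GC box. Base composition was not matched between the members and all windows. The letters TGGGAA, a core that Ikaros can bind, were found in 0 of 7 on either strand, against 21.6% of all windows, and the E-box CACGTG in 1 of 7 (Rbbp4), against 6.02%. A match, or the lack of one, is a description of these letters only. Other forms of the Ikaros core were not searched, and the letters TGGGAT, for instance, occur in the Chd4 windows.

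Stimulation through the B cell receptor changed several of these transcripts in both genotypes. Mbd3 rose most over unstimulated cells, Mta1, Hdac2 and Rbbp7 also rose, Mta3 fell sharply, and Hdac1 fell at 3 h. In WT cells after 3 h, 6 of the 10 members changed, 4 up and 2 down, where 19.4% of all genes did (9.15% up and 10.2% down), and 42.5% of the 7020 brighter genes. At 12 h in WT cells 5 changed, 4 up and 1 down, against 18.8% of all genes (10.1% up and 8.66% down) and 41.3% of the brighter ones. In IkL/L cells 7 changed at 3 h, 5 up and 2 down, against 20.4% of all genes (9.82% up and 10.6% down) and 43.6% of the brighter ones. There 4 changed at 12 h, all 4 up, against 17.6% of all genes (9.72% up) and 37.5% of the brighter ones. The median log2 difference of the 10 was 0.48 at 3 h and 0.23 at 12 h in WT cells, and 0.54 and 0.28 in IkL/L cells, beside medians of all genes between -0.03 and 0.05. The mean of the B cell markers was lower in stimulated cells (above), and its part in these differences was not tested. The arrays of the 2 groups did not overlap for 8 members at 3 h and 8 at 12 h in WT cells, against 54.8% and 53.8% of all genes. The IkL/L groups did not overlap for 10 members at 3 h and 6 at 12 h, against 52.3% and 50.4%. The counts in WT cells leaned on single arrays: at 3 h the count was 3 without unstimulated replicate 1, 3 without unstimulated replicate 2 and 2 without 3 h replicate 1. At 12 h it was 3 without unstimulated replicate 1, 2 without unstimulated replicate 2 and 3 without 12 h replicate 1. Among IkL/L cells only the leaving out of 3 h replicate 2 moved the count at 3 h this far, to 4.

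**Figure D1:**
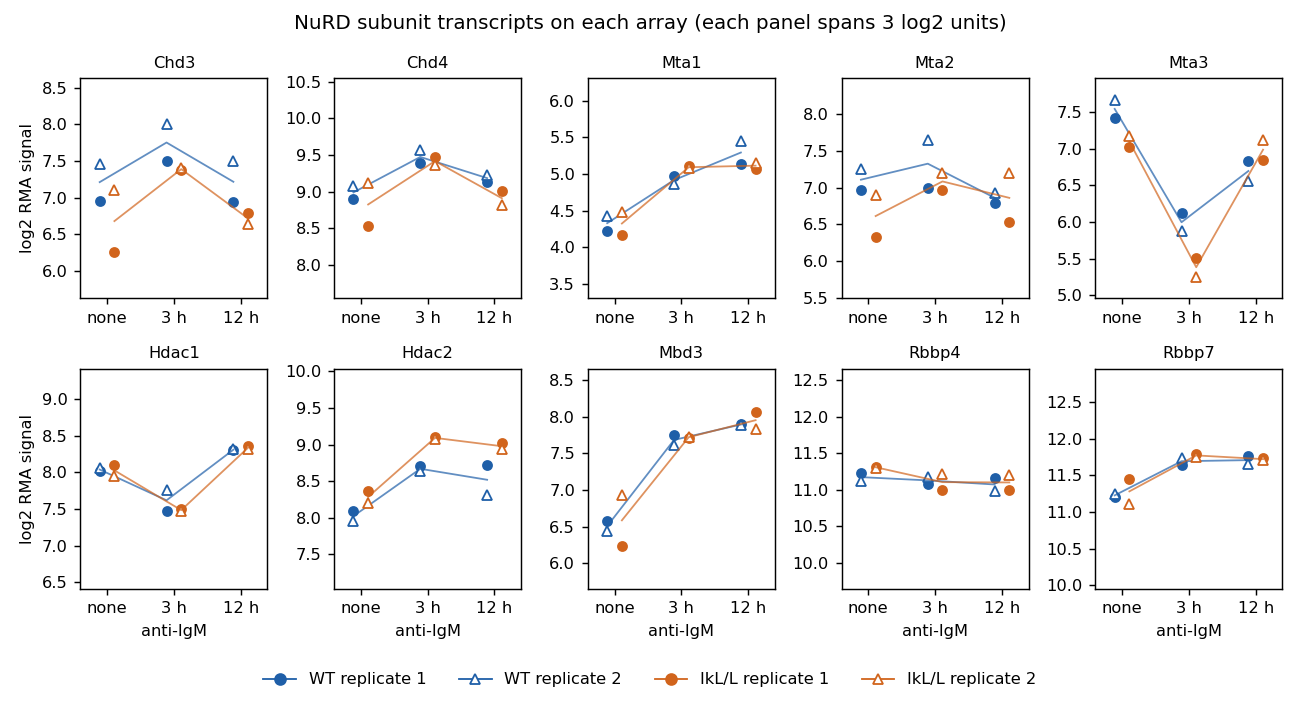
Log2 signal of each of the 10 NuRD genes (vertical axis) on all 12 arrays, grouped by genotype and by stimulus (none, 3 h, 12 h). Circles are replicate 1, triangles replicate 2, and lines join the group means; Mbd3 climbs from between 6.24 and 6.94 at rest to between 7.84 and 8.07 at 12 h, and Mta3 dips at 3 h.

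Among the ATPases, Chd4, the main remodelling motor of NuRD, was measured at 8.90 and 9.08 in unstimulated WT cells, 9.38 and 9.56 at 3 h and 9.14 and 9.23 at 12 h. Chd4 in IkL/L cells was 8.53 and 9.12 unstimulated, 9.47 and 9.36 at 3 h and 9.01 and 8.81 at 12 h. Both stimulated groups at 3 h lay above their unstimulated arrays, and by 12 h IkL/L cells overlapped with them again. Chd4 rose at 3 h in IkL/L cells by 0.59 (SE 0.18, 1.51-fold, limma adjusted p = 0.042), while in WT cells the difference of 0.48 (SE 0.18) gave an adjusted p of 0.1. The test of the difference between these responses gave 0.11 (SE 0.26, adjusted p = 0.99), so a difference between genotypes was not shown. The IkL/L call was lost without unstimulated IkL/L replicate 1 (0.30, adjusted p = 0.293), without 3 h replicate 1 (0.181) or replicate 2 (0.113), and, through the shared spread, without any 1 WT array (0.0542 to 0.0579) or 1 IkL/L array of 12 h (0.0526). With quantile normalization of the deposited values the IkL/L difference was 0.47 (limma adjusted p = 0.107), and with arrays scaled to housekeeping genes 0.69 (0.0565). In WT cells the adjusted p fell to 0.0246 when either unstimulated IkL/L array was left out.

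Chd3, the sister ATPase, varied most between replicates of all 10 genes, with a pooled SD of 0.361 within groups. Its signals in WT cells were 6.96 and 7.47 unstimulated, 7.50 and 8.001 at 3 h and 6.94 and 7.50 at 12 h, and in IkL/L cells 6.25 and 7.10, 7.38 and 7.40, and 6.79 and 6.64. The 3 h arrays were the highest within each genotype and replicate number, and at 12 h both genotypes overlapped with their unstimulated arrays. The differences at 3 h were 0.54 in WT (SE 0.30, adjusted p = 0.301) and 0.71 in IkL/L cells (SE 0.30, adjusted p = 0.139). With the replicate number as a block within genotype, the IkL/L difference at 3 h passed the test (adjusted p = 0.0245), as did the lower level at 12 h than at 3 h in IkL/L cells, by -0.67 (adjusted p = 0.0371 with the block, 0.186 without). Without unstimulated IkL/L replicate 2 the 3 h difference was 1.13 (adjusted p = 0.0246), and without replicate 1, the lowest array, it was 0.28 (adjusted p = 0.671).

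The MTA scaffolds split. Mta1 was the dimmest member, at 4.23 and 4.43 in unstimulated WT cells, 4.97 and 4.86 at 3 h and 5.14 and 5.45 at 12 h. Mta1 in IkL/L cells was 4.16, under the floor, and 4.49 unstimulated, then 5.10 and 5.08 at 3 h and 5.07 and 5.15 at 12 h. All stimulated arrays lay above all unstimulated ones. Mta1 rose in WT cells by 0.59 at 3 h (SE 0.15, adjusted p = 0.0186) and by 0.97 at 12 h (1.95-fold, adjusted p = 0.0013), and in IkL/L cells by 0.77 (1.70-fold, adjusted p = 0.00429) and 0.79 (1.73-fold, adjusted p = 0.00464). The WT call at 3 h was lost without unstimulated replicate 1 (adjusted p = 0.142), 3 h replicate 1 (0.112) or 3 h replicate 2 (0.0528), and that at 12 h was kept in all 26 alternatives.

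Mta3 behaved in the opposite direction. Its signals in WT cells were 7.42 and 7.67 unstimulated, 6.12 and 5.87 at 3 h and 6.84 and 6.56 at 12 h. Mta3 in IkL/L cells was 7.03 and 7.17 unstimulated, 5.51 and 5.25 at 3 h and 6.85 and 7.13 at 12 h. The 3 h arrays were the lowest in both genotypes, with no overlap with either other condition. Mta3 fell at 3 h by 1.55 in WT cells (SE 0.17, 2.92-fold, adjusted p = 0.000125) and by 1.72 in IkL/L cells (SE 0.17, 3.29-fold, adjusted p = 7.24e-05), and both calls were kept in all 26 alternatives. From 3 h to 12 h it rose again, by 0.70 in WT (adjusted p = 0.0234) and by 1.61 in IkL/L cells (3.04-fold, adjusted p = 0.000207). At 12 h it was still lower than unstimulated in WT cells, by 0.85 (adjusted p = 0.0049, and 0.0519 without unstimulated replicate 2), while in IkL/L cells the difference was -0.11 (adjusted p = 0.793). The test of that difference between genotypes gave 0.74 (SE 0.24, unadjusted p = 0.0107, adjusted p = 0.652), which did not pass. The rise from 3 h to 12 h in WT cells was lost without 3 h replicate 2 (adjusted p = 0.147) or 12 h replicate 1 (0.131).

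The rise of Mta3 from 3 h to 12 h did not pass with another probe set. The probe set used (1451352_s_at) carries the suffix Affymetrix gives to probes shared by several transcripts. A second one, 1421402_at, read 7.54 and 7.92 in unstimulated WT cells, 5.05 and 5.77 at 3 h and 5.51 and 5.87 at 12 h. The IkL/L arrays read 7.18 and 7.29, then 5.22 and 4.99, then 5.30 and 5.78. There the 12 h arrays stayed with the 3 h arrays, well under the unstimulated ones. Its differences from unstimulated WT cells were -2.33 at 3 h and -2.04 at 12 h (limma, adjusted over all probe sets, adjusted p = 0.000215 and 0.000519). Those from unstimulated IkL/L cells were -2.13 and -1.69 (adjusted p = 0.000364 and 0.00183). Between 3 h and 12 h it differed by 0.28 in WT (adjusted p = 0.687) and 0.44 in IkL/L cells (adjusted p = 0.373). The fall at 3 h therefore held in both probe sets, and the return at 12 h in 1 of them; the third Mta3 probe set was under the floor on 12 of 12 arrays.

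Mta2, the third scaffold, was 6.97 and 7.25 in unstimulated WT cells, 6.9999 and 7.66 at 3 h and 6.79 and 6.93 at 12 h, and in IkL/L cells 6.33 and 6.90, 6.97 and 7.20, and 6.53 and 7.20. The groups of WT cells at 3 h and at rest overlapped, and replicates differed by up to 0.67. No comparison of Mta2 passed the test, and its largest difference was between unstimulated IkL/L and WT cells, at -0.50 (SE 0.28, adjusted p = 0.609). With the block within genotype, the difference of 0.47 at 3 h in IkL/L cells gave an adjusted p of 0.0479, against 0.324 without it.

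**Figure D2:**
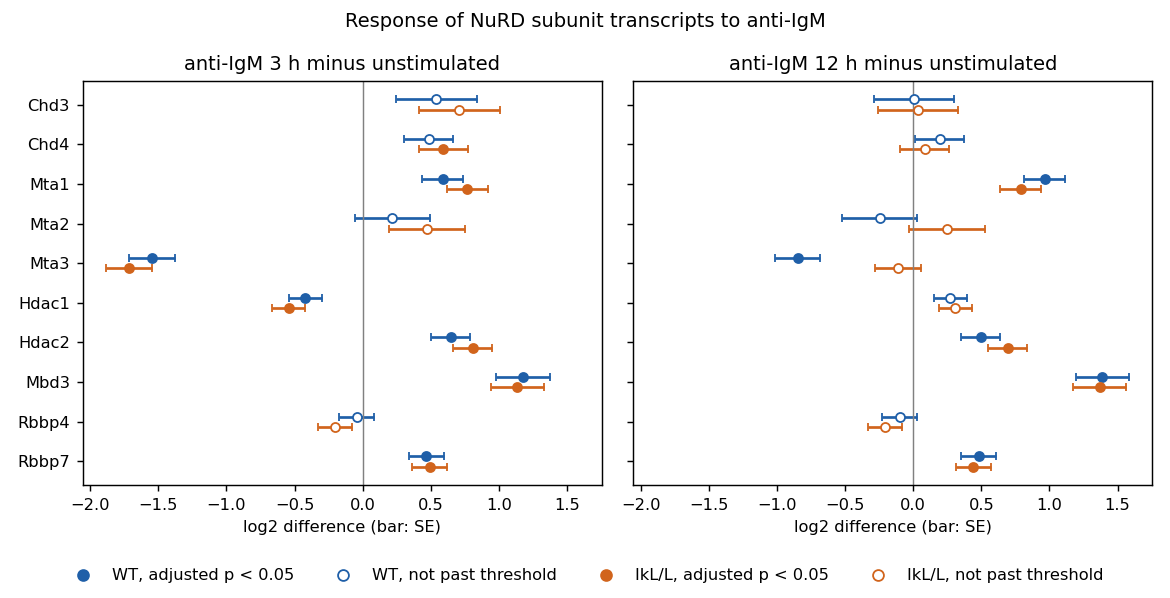
Log2 difference from unstimulated cells of the same genotype for each member at 3 h and 12 h, with error bars of 1 SE from the limma fit and filled points where the adjusted p was under 0.05. Mbd3, Mta1, Hdac2 and Rbbp7 lie above 0 at both times in both genotypes, and Mta3 lies lowest at 3 h (-1.55 and -1.72).

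The deacetylases moved in opposite directions at 3 h. Hdac1 was 8.02 and 8.06 in unstimulated WT cells, 7.48 and 7.76 at 3 h and 8.30 and 8.32 at 12 h, and in IkL/L cells 8.11 and 7.95, 7.50 and 7.47, and 8.36 and 8.32. In both genotypes the order was 3 h lowest, unstimulated between, 12 h highest, with no overlap between any of these groups. Hdac1 fell at 3 h by 0.42 in WT (SE 0.12, 1.34-fold, adjusted p = 0.0338) and by 0.54 in IkL/L cells (1.46-fold, adjusted p = 0.00896), and rose from 3 h to 12 h by 0.69 (1.61-fold, adjusted p = 0.00518) and 0.85 (1.81-fold, adjusted p = 0.00112). At 12 h its differences from unstimulated cells were 0.27 (adjusted p = 0.175) and 0.31 (adjusted p = 0.121).

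The fall of Hdac1 at 3 h was the less stable of these changes. In WT cells it was lost without unstimulated replicate 1 (adjusted p = 0.113), unstimulated replicate 2 (0.164) or 3 h replicate 1 (a difference of -0.28, 0.256), and just missed the threshold without any 1 of the stimulated IkL/L arrays (0.0503 for those of 3 h, 0.0502 for those of 12 h). The IkL/L call was lost without unstimulated replicate 1 (0.0668) or 3 h replicate 2 (0.0576). With arrays scaled to housekeeping genes, the adjusted p was 0.229 in WT and 0.108 in IkL/L cells. The rise of Hdac1 from 3 h to 12 h stayed past the threshold when any 1 array was left out, in both genotypes.

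Hdac2 was 8.09 and 7.96 in unstimulated WT cells, 8.70 and 8.64 at 3 h and 8.72 and 8.32 at 12 h. Hdac2 in IkL/L cells was 8.37 and 8.20 unstimulated, 9.11 and 9.08 at 3 h and 9.02 and 8.93 at 12 h. Stimulated arrays lay above unstimulated ones within each genotype. It rose in WT cells by 0.65 at 3 h (1.57-fold, adjusted p = 0.00873) and 0.50 at 12 h (1.41-fold, adjusted p = 0.0346), and in IkL/L cells by 0.81 (1.75-fold, adjusted p = 0.00245) and 0.69 (1.62-fold, adjusted p = 0.00716). The WT call at 3 h was lost without unstimulated replicate 2 (adjusted p = 0.0729) or 3 h replicate 1 (0.058). That at 12 h was lost without unstimulated replicate 1 (0.0827) or 2 (0.198), without 12 h replicate 1 (a difference of 0.29, 0.228), and without either IkL/L array of 3 h (0.0517). A second Hdac2 probe set, 1449080_at, rose at 3 h in WT cells by 0.78 (limma, adjusted over all probe sets, adjusted p = 0.0371) and at 12 h in IkL/L cells by 0.93 (adjusted p = 0.0179). It gave 0.55 at 12 h in WT (adjusted p = 0.144) and 0.65 at 3 h in IkL/L cells (adjusted p = 0.0751).

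Mbd3, which bridges the deacetylase and remodelling modules, showed the largest rise of the 10 over unstimulated cells. Its signals in WT cells were 6.58 and 6.44 unstimulated, 7.75 and 7.62 at 3 h and 7.90 and 7.89 at 12 h. Mbd3 in IkL/L cells was 6.24 and 6.94 unstimulated, 7.72 and 7.73 at 3 h and 8.07 and 7.84 at 12 h. All stimulated arrays of both genotypes lay above all unstimulated ones. It rose by 1.18 at 3 h (SE 0.20, 2.26-fold, adjusted p = 0.00175) and 1.39 at 12 h (2.62-fold, adjusted p = 0.000754) in WT cells, and by 1.14 (2.20-fold, adjusted p = 0.00212) and 1.37 (2.58-fold, adjusted p = 0.000956) in IkL/L cells. These 4 calls were kept when any 1 array was left out. The responses of the genotypes differed by -0.04 at 3 h, with a 95% interval from -0.66 to 0.58, and by -0.02 at 12 h, from -0.64 to 0.60.

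Of the histone chaperones, which are close relatives, Rbbp7 rose and Rbbp4 passed no test, and the difference between them was not tested. Both were read with probe sets of the suffix _x_at, Rbbp7 1456227_x_at and Rbbp4 1434892_x_at. Whether these probe sets also read other transcripts was not tested. Rbbp7 was 11.21 and 11.24 in unstimulated WT cells, 11.64 and 11.74 at 3 h and 11.76 and 11.65 at 12 h, and in IkL/L cells 11.45 and 11.11, 11.79 and 11.75, and 11.74 and 11.71. Stimulated arrays lay above unstimulated ones in both genotypes. It rose by 0.47 and 0.48 at 3 h and 12 h in WT cells (adjusted p = 0.0266 and 0.0238) and by 0.49 and 0.44 in IkL/L cells (adjusted p = 0.0197 and 0.038), changes of 1.36-fold to 1.41-fold. A second Rbbp7 probe set, 1415775_at, rose in the same 4 comparisons by 0.70, 0.56, 0.59 and 0.55 (limma, adjusted over all probe sets, adjusted p = 0.00254, 0.00922, 0.00624 and 0.0111). With the probe set used, each of the 4 calls was lost without single arrays. In WT cells these were unstimulated replicates 1 and 2 (at 3 h 0.129 and 0.102, at 12 h 0.118 and 0.0952), 3 h replicates 1 and 2 (0.071 and 0.136) and 12 h replicates 1 and 2 (0.118 and 0.0558). For IkL/L cells at 3 h they were unstimulated replicate 2 (a difference of 0.32, 0.128) and 3 h replicates 1 and 2 (0.0959 and 0.0765). For IkL/L cells at 12 h they were unstimulated replicate 2 (a difference of 0.27, 0.24), 12 h replicates 1 and 2 (0.144 and 0.134), and, through the shared spread, either unstimulated WT array (0.0592), either WT array of 3 h (0.0511) and either IkL/L array of 3 h (0.0558).

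Rbbp4 was between 10.99 and 11.31 on all 12 arrays with the probe set used (1434892_x_at), the narrowest range of the 10. It was 11.23 and 11.12 in unstimulated WT cells, 11.08 and 11.18 at 3 h and 11.16 and 10.99 at 12 h, and these groups overlapped. Rbbp4 in IkL/L cells was 11.31 and 11.30 unstimulated, 10.996 and 11.22 at 3 h and 11.003 and 11.20 at 12 h, where the unstimulated arrays lay above all stimulated ones. Its differences from unstimulated cells were -0.04 at 3 h and -0.10 at 12 h in WT cells (adjusted p = 0.903 and 0.723), and -0.20 and -0.21 in IkL/L cells (adjusted p = 0.358 and 0.374). The other 3 Rbbp4 probe sets passed no test either, and Rbbp4 1454791_a_at differed by 0.41 at 3 h in WT cells (adjusted over all probe sets, adjusted p = 0.302). Their signals were less even: 1456260_at ran from 4.995 to 7.48 and 1454875_a_at from 5.60 to 6.96 over the 12 arrays. Means over the 12 arrays were 8.54 for 1454791_a_at, 6.55 for 1456260_at and 6.41 for 1454875_a_at, against 11.15 for 1434892_x_at. The narrow range was thus seen with 1434892_x_at only.

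Between 3 h and 12 h, the same 2 members changed in each genotype with the probe sets used, Hdac1 and Mta3, both upward. With Mta3 1421402_at the rise passed in neither genotype (above). The share of all genes that changed between these times was 10.8% in WT (6.5% upward) and 15.5% in IkL/L cells (9.12% upward). Of the brighter genes 24% changed in WT and 32.6% in IkL/L cells. The arrays of 3 h and 12 h did not overlap for 7 members in each genotype, against 47.2% and 55% of all genes. Leaving out WT 3 h replicate 2 or WT 12 h replicate 1 removed Mta3 and brought the count to 1.

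**Figure D3:**
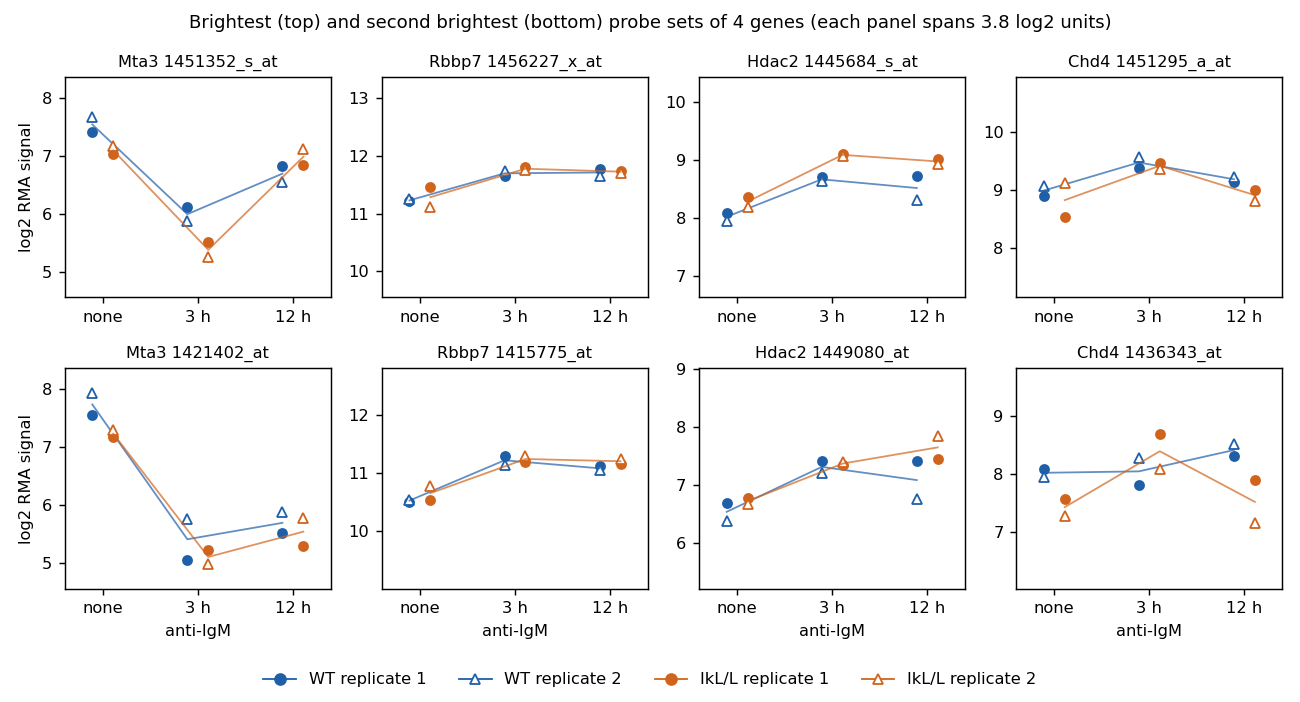
Log2 signal by stimulus and genotype for the brightest probe set (top) and the second brightest (bottom) of Mta3, Rbbp7, Hdac2 and Chd4, with circles for replicate 1, triangles for replicate 2 and lines through the group means. For Mta3, the probe set used is higher at 12 h than at 3 h and the second one stays between 5.30 and 5.87 at 12 h.

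For Chd4 the probe sets also differed. Chd4 1436343_at rose at 3 h in IkL/L cells by 0.96 (limma, adjusted over all probe sets, adjusted p = 0.0379) and Chd4 1438476_a_at by 0.74 (adjusted p = 0.0148), while in WT cells their differences were 0.02 (adjusted p = 0.981) and -0.02 (adjusted p = 0.974). The probe set used gave a difference of 0.48 in WT cells. From 3 h to 12 h Chd4 1438476_a_at fell by 0.79 in IkL/L cells (adjusted p = 0.0142). Its interaction of genotype and 3 h stimulus was 0.76 (adjusted p = 0.656) and that of 1436343_at was 0.94 (adjusted p = 0.775), and neither passed.

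Between genotypes no member passed the test at a single time, and Hdac2 passed on average. In limma, 0 of the 10 members passed the adjusted threshold between IkL/L and WT cells when unstimulated, at 3 h or at 12 h, where 1.13%, 1.7% and 0.616% of all genes did. At an unadjusted p under 0.05 there were 1, 2 and 1: Mta3 unstimulated, Hdac2 and Mta3 at 3 h, and Hdac2 at 12 h. The arrays of the genotypes did not overlap for 4, 5 and 5 members, against 38.7%, 45% and 38.1% of all genes. Averaged over the 3 conditions, 1 member passed, Hdac2, which was higher in IkL/L cells, against 6.08% of all genes (3.41% higher) and 11.4% of the brighter ones.

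Hdac2 was higher in IkL/L cells by 0.26 at rest, by 0.42 after 3 h and by 0.46 after 12 h (adjusted p = 0.588, 0.225 and 0.283, none past the threshold), and both IkL/L arrays lay above both WT arrays in each condition. The average was 0.38 (SE 0.08, 95% interval 0.20 to 0.56, 1.30-fold, adjusted p = 0.0242). That call was lost without WT unstimulated replicate 2 (adjusted p = 0.0797), WT 3 h replicate 2 (0.0701), IkL/L unstimulated replicate 1 (0.0512), IkL/L 3 h replicate 1 (0.0553) or 2 (0.0671), or IkL/L 12 h replicate 1 (0.0527) or 2 (0.0552). The means of the 3 Hdac2 arrays of each replicate number were 8.504 and 8.303 for WT cells, against 8.83 and 8.74 for IkL/L cells, and the test of the average counts the 6 arrays of a genotype as independent. The probe set used, Hdac2 1445684_s_at, carries the suffix _s_at described for Mta3. Hdac2 1449080_at, without that suffix, gave 0.18 unstimulated, 0.06 at 3 h and 0.56 at 12 h. Its average was 0.27 (limma, adjusted over all probe sets, adjusted p = 0.34). With that probe set the arrays of the genotypes overlapped when unstimulated and at 3 h, and did not overlap at 12 h.

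**Figure D4:**
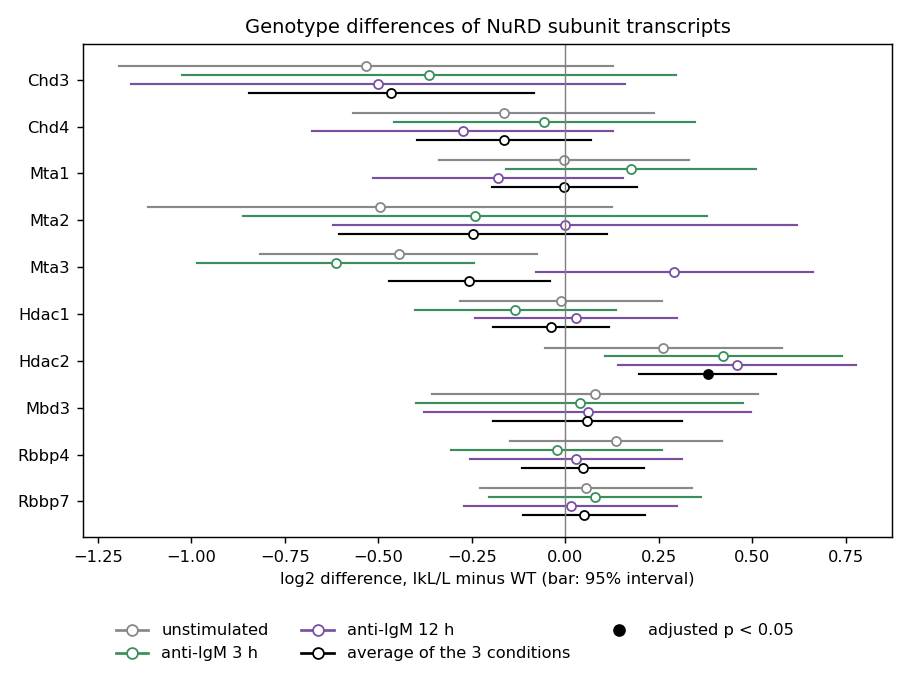
Log2 difference of IkL/L from WT cells for each member when unstimulated, at 3 h, at 12 h and on average, with 95% intervals from the limma fit. The average for Hdac2 (0.38) is the value that passed the test, and the averages for Chd3 (-0.47) and Mta3 (-0.26) did not.

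The other members gave these averages of IkL/L minus WT, none past the threshold, with intervals not adjusted for the number of genes. Chd3 gave -0.47 (95% interval -0.85 to -0.08, adjusted p = 0.161), made of -0.53 unstimulated, -0.36 at 3 h and -0.50 at 12 h. The adjusted p was 0.0258 with the replicate block within genotype and 0.0394 with a block shared by both genotypes. The former sets the genotypes against the spread within replicate numbers, and the latter pairs numbers across genotypes, so neither is a test over independent samples of each genotype. The means of the 3 Chd3 arrays of each replicate number were 7.13 and 7.65 for WT cells, against 6.81 and 7.05 for IkL/L cells. Mta3 gave -0.26 (interval -0.47 to -0.04, adjusted p = 0.171), made of -0.45, -0.61 and 0.29, so its sign at 12 h was opposite. Mta3 1421402_at gave -0.50, -0.31 and -0.15, with 1 sign in all conditions, and an average of -0.32 (adjusted over all probe sets, adjusted p = 0.33). Chd4 gave -0.17 (interval -0.40 to 0.07) and Mta2 gave -0.25 (interval -0.60 to 0.11). The intervals of the remaining members all included 0: Hdac1 lay between -0.19 and 0.12, Mta1 between -0.20 and 0.19, Mbd3 between -0.19 and 0.31, Rbbp4 between -0.12 and 0.21, and Rbbp7 between -0.11 and 0.21. Other Rbbp4 probe sets gave averages outside that interval, 0.31 for 1454791_a_at (adjusted over all probe sets, adjusted p = 0.243) and 0.66 for 1454875_a_at (SE 0.17, adjusted p = 0.0669). Differences within these intervals could not be told from 0 with 2 arrays a group.

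Markers of marginal zone B cells, which the sort was set to leave out, were higher in IkL/L cells. The mean of the 3 markers (Cd9, Dtx1 and Cd1d1) was 7.05 to 7.14 in unstimulated WT cells and 7.51 to 7.76 in IkL/L cells, 6.36 to 6.45 and 6.81 to 7.08 at 3 h, and 6.68 to 6.74 and 7.43 to 7.70 at 12 h. The B cell marker mean was lower in IkL/L cells in each condition, at 9.72 to 9.87 unstimulated, against 10.1 to 10.2 in WT cells. The mean of the 4 dendritic cell markers was higher in IkL/L cells without overlap, at 4.12 to 4.26 against 3.54 to 3.78 unstimulated, 4.55 to 4.73 against 3.93 to 4.10 at 3 h, and 3.88 to 4.08 against 3.75 to 3.804 at 12 h. Of these 4, Itgax and Siglech were under the floor on all 12 arrays. The part of these marker differences in the Hdac2 difference was not tested.

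The responses themselves were compared between genotypes by an interaction term. In limma 0 of the 10 members passed at 3 h and 0 at 12 h, where 0.0385% and 0.022% of all genes did, and at an unadjusted p under 0.05 there were 0 at 3 h and 1 at 12 h, Mta3. The differences between responses ranged from -0.17 (Mta3) to 0.25 (Mta2) at 3 h and from -0.17 (Mta1) to 0.74 (Mta3) at 12 h. The lowest adjusted p was 0.984 at 3 h and 0.652 at 12 h. This does not show that the responses were alike: for Chd3, the 95% interval of the difference at 3 h ran from -0.77 to 1.10.

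Ikzf1, which encodes Ikaros, was 9.85 and 9.83 in unstimulated WT cells and 9.998 and 9.94 in IkL/L cells. Its probe set's position relative to the IkL allele is unknown here, and these levels check nothing about the genotype. Ikzf1 fell at 3 h by 0.83 in WT (adjusted p = 0.0218) and by 1.64 in IkL/L cells (3.12-fold, adjusted p = 0.000413). The WT call was lost without any 1 of its 4 arrays (adjusted p 0.0594 to 0.128) and with the mean of all Ikzf1 probe sets (-0.41, adjusted p = 0.116), while the IkL/L call was kept in all 26 alternatives. The average of IkL/L minus WT was -0.48 (adjusted p = 0.0533), which did not pass.

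Subunits and partners that join NuRD less constantly were compared in the same way. Of 8 such genes, 0 rose and 4 fell in WT cells at 3 h, and 1 rose and 2 fell at 12 h. The median differences were -0.27 and -0.14. At these times 19.4% and 18.8% of all genes changed in WT cells, and 42.5% and 41.3% of the brighter ones. Among IkL/L arrays 1 rose and 2 fell at 3 h, and 0 changed at 12 h in limma (3 at an unadjusted p under 0.05). There 20.4% and 17.6% of all genes changed, and 43.6% and 37.5% of the brighter ones. The list's median differences in IkL/L cells were -0.04 and -0.16, beside -0.03 and 0.02 over all genes. Cdk2ap2, a small protein related to the NuRD subunit Cdk2ap1, fell by 1.72 in WT (3.29-fold, adjusted p = 7.18e-05) and by 2.36 in IkL/L cells (5.13-fold, adjusted p = 1.26e-05) at 3 h. It then rose by 1.504 and 1.95 to 12 h (adjusted p = 0.000517 and 7.56e-05), and these 4 calls were kept in all 26 alternatives. Zmynd8, a chromatin reader that binds NuRD, fell at 3 h by 0.91 in WT (adjusted p = 0.00728, but 0.0552 without unstimulated replicate 1 and 0.0681 without 3 h replicate 1) and by 1.16 in IkL/L cells (adjusted p = 0.00174).

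Gatad2b, which links the ATPase to the deacetylase module, was 8.11 and 8.58 in unstimulated WT cells, 7.37 and 7.78 at 3 h and 7.55 and 7.62 at 12 h. Gatad2b in IkL/L cells was 7.56 and 7.73, 7.65 and 7.50, and 7.52 and 7.44. The unstimulated WT arrays were the highest of the 12. Gatad2b fell by 0.77 at 3 h in WT cells (adjusted p = 0.0121), and in IkL/L cells the difference was -0.07 (adjusted p = 0.886). The difference between the responses was 0.70 (adjusted p = 0.768) and did not pass, and the WT call was lost without unstimulated replicate 2 (0.115), without 3 h replicate 1 (0.109) and with the mean of all Gatad2b probe sets (0.354). Gatad2a, also on the list, was 7.87 and 7.92 in unstimulated WT cells and 8.32 and 8.45 at 3 h. In IkL/L cells it was 7.27 and 8.08, then 8.11 and 8.50. Its higher level at 3 h did not pass in either genotype. Mbd2, the alternative to Mbd3, fell at 3 h in WT cells by 0.53 (adjusted p = 0.00969), while Mbd3 rose. That call was lost without unstimulated replicate 1 (0.0595) or 2 (0.053), without 3 h replicate 2 (0.0738) and with the mean of all Mbd2 probe sets (0.223). The Mbd2 difference in IkL/L cells was -0.12 (adjusted p = 0.622), with a difference between responses of 0.41 (adjusted p = 0.861). Kdm1a, a histone demethylase found with NuRD, was chosen after its values were seen: it rose at 3 h in IkL/L cells by 0.67 (adjusted p = 0.00555) and differed by 0.28 in WT cells (adjusted p = 0.231).

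**Figure D5:**
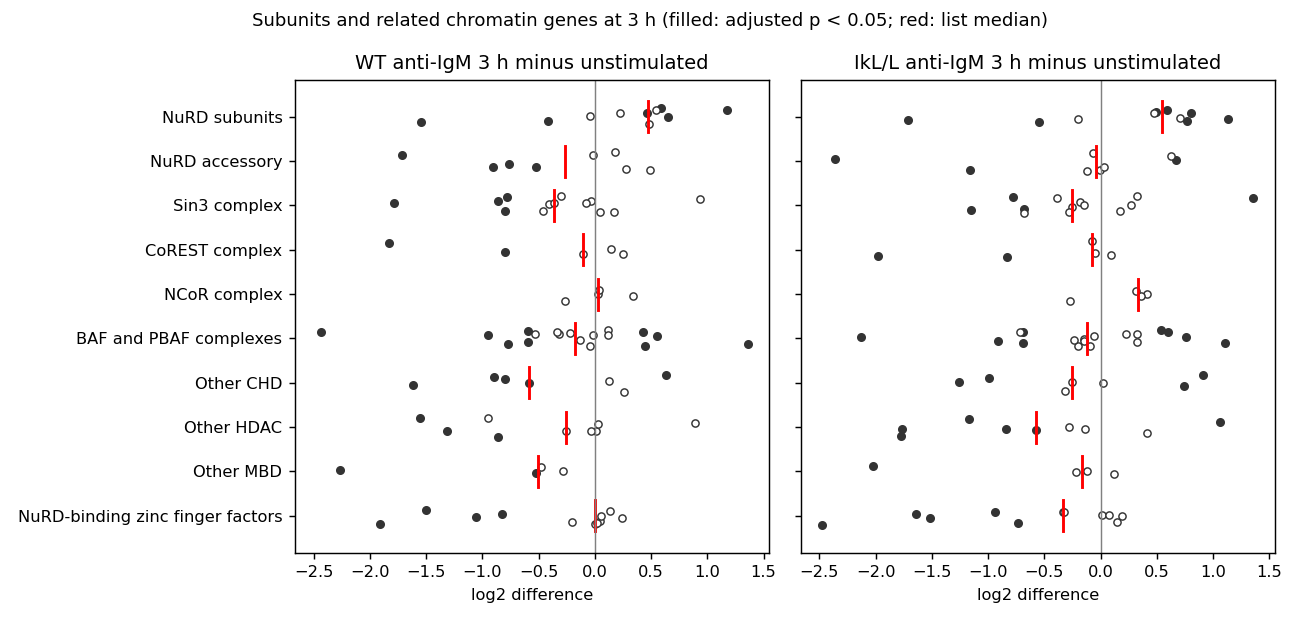
Log2 difference at 3 h against unstimulated cells for each gene of each list, in WT (left) and IkL/L cells (right); points are genes, filled where the adjusted p was under 0.05, and the red bar is the list's median. The 10 NuRD subunits, at the top, have medians of 0.48 and 0.54.

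Other families that share enzymes or readers with NuRD gave the following counts. They are to be read beside the 19.4% of all genes and 42.5% of the brighter genes that changed in WT cells at 3 h. These shares were 18.8% and 41.3% in WT cells at 12 h, and 20.4% and 43.6% in IkL/L cells at 3 h. Of 7 other CHD remodellers, 1 rose and 4 fell in WT cells at 3 h, among them Chd9 by 1.62 (3.07-fold, adjusted p = 6.53e-05), and 0 rose and 4 fell at 12 h. In IkL/L cells 2 of these rose and 2 fell at 3 h. Of 9 other deacetylases, 0 rose and 3 fell at 3 h in WT cells, among them Hdac10 by 1.55 (2.93-fold, adjusted p = 0.000826) and Hdac6 by 0.86 (adjusted p = 0.00111), and 1 rose and 0 fell at 12 h. In IkL/L cells 1 deacetylase rose and 5 fell at 3 h. The counts for the MBD, Sin3, CoREST, NCoR and BAF lists that come next are for WT cells at 3 h. Of the 4 other MBD family genes measured, Mbd2 again among them, 0 rose and 2 fell. The DNA glycosylase Mbd4 fell most, by 2.26 (4.804-fold, limma adjusted p = 1.45e-05). Of 13 genes of the Sin3 complex, which also contains Hdac1, Hdac2, Rbbp4 and Rbbp7, 0 rose and 4 fell, with Arid4a at -1.78 (adjusted p = 0.00012). Of 5 genes of the CoREST complex 0 rose and 2 fell, with Phf21a at -1.83 (adjusted p = 0.000375). In limma 0 of 4 NCoR complex genes changed at 3 h in WT cells (1 at an unadjusted p under 0.05). Of 18 BAF and PBAF genes 4 rose and 5 fell, with the ATPase Smarca2 at -2.44 (5.42-fold, limma adjusted p = 6.5e-05). In IkL/L cells at 3 h, 0 MBD genes rose and 1 fell, and 1 Sin3 gene rose and 3 fell. There 0 CoREST genes rose and 2 fell, and 4 BAF and PBAF genes rose and 4 fell. In limma 0 NCoR genes changed there (2 at an unadjusted p under 0.05). The median differences at 3 h in WT cells were -0.59 for the CHD, -0.26 for the deacetylase, -0.50 for the MBD, -0.37 for the Sin3, -0.11 for the CoREST, -0.18 for the BAF, 0.03 for the NCoR and 0.0041 for the zinc finger list described next, beside 0.02 over all genes.

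Of 11 zinc finger factors known to bind NuRD, 0 rose and 4 fell in WT cells at 3 h, and 0 rose and 5 fell in IkL/L cells. Of all genes 19.4% and 20.4% changed in these comparisons, and of the brighter ones 42.5% and 43.6%. Bcl6, the partner of Mta3, fell by 1.504 at 3 h (2.84-fold, adjusted p = 0.000723) and by 1.95 at 12 h (3.88-fold, adjusted p = 0.000182) in WT cells. Bcl11a, a lymphoid repressor, fell by 1.91 at 3 h (3.76-fold, adjusted p = 3.99e-05), and Ikzf3, which encodes Aiolos, fell by 1.05 (adjusted p = 0.00259). Against genotype, Hdac9, a class IIa deacetylase, differed between IkL/L and WT cells at 3 h by -1.05 (adjusted p = 0.00749), and on average at -0.61 (adjusted p = 0.00195). The call at 3 h was lost without WT 3 h replicate 2 (0.0796) or IkL/L 3 h replicate 2 (0.0539). Mbd4 was lower on average at -0.57 (adjusted p = 0.00616, but 0.0832 with the mean of its probe sets) and Arid4b at -0.38 (adjusted p = 0.0105, but 0.246 with that mean). Zfpm1, of the zinc finger list, differed by -1.08 at 3 h (limma adjusted p = 0.0247) and -0.64 on average (0.00798). These calls were kept in 17 and 23 of 26 alternatives. Chd7 was higher in IkL/L cells, by 0.86 at 3 h (limma adjusted p = 0.0394) and 0.40 on average (0.0466). Its calls were kept in 12 and 9 of 26 alternatives.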

How the data were processed

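Total RNA (100 ng, labelled in 2 cycles) from 12 samples was hybridized to Affymetrix arrays, per the labels' protocols. The deposited values are log2 signals per probe set, summarized by the authors with RMA, per the submitters' processing notes. RMA background correction and quantile normalization compress low signals and bring the arrays to near-equal distributions. The medians of the deposited values still differed slightly (3.12 to 3.21). Depth of measurement shows only as signal over background. Of 45037 probe sets, 34945 carry 1 symbol in the platform annotation, 932 several and 9160 are not listed. Each of 18193 genes was represented by its brightest probe set over all arrays. All 12 arrays were fitted in limma 3.58.1 (R 4.3.3), with 1 mean per group, empirical Bayes moderation (6 residual and 3.95 prior degrees of freedom) and Benjamini-Hochberg adjustment over all genes within each of 12 comparisons. The floor of 4.21 is 1 above the highest array median. The fit was tested on simulated data.

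The members and lists were chosen with earlier results of these data known. All 10 members were named, and from each related list at most the 3 genes with the largest difference among those past the threshold, for the WT responses and the genotype comparisons; IkL/L values, Ikzf1 and Kdm1a were added to them. Groups and replicate numbers came from the sample titles. Same-numbered samples deviated together within a genotype (r from 0.546 to 0.619 in WT and 0.354 to 0.49 in IkL/L cells, over 6065 genes), so the numbers pair samples within a genotype, and r lay between 0.0263 and 0.31 across genotypes. The 26 alternatives covered replicate blocks, probe set choice, a filter on dim genes, variance model, array weights, scaling, the arrays fitted and arrays left out. RefSeq promoter windows (GRCm38.p6) were searched for exact 6-base motifs.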

Additional observations from a re-analysis of the deposited data

How the results depend on the processing

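Of 27 member values past the threshold, 0 changed sign over 26 alternatives. Of the 702 resulting values, 569 kept the call and 133 lost it, and 93 values not past the threshold gained a call in 19 of 2418 cases. The number of members changed, with arrays left out singly or by replicate number, ranged from 1 to 7 in WT cells at 3 h, 1 to 5 at 12 h and 0 to 2 between these times, and from 2 to 7 in IkL/L cells at 3 h, 1 to 4 at 12 h and 1 to 3 between these times. It ranged from 0 to 1 for the average difference between genotypes. From 3 h to 12 h in WT cells it was 1 with the mean of all probe sets, 0 with only the arrays compared and 1 with probe sets lacking the suffixes _s_at and _x_at, an alternative chosen after seeing the data. The last also gave 1 in IkL/L cells from 3 h to 12 h. For the average between genotypes it was 0 with the mean of all probe sets, 0 with probe sets lacking these suffixes, and 2 with either replicate block, which added Chd3 and is no test of genotype over independent samples. The block within genotype raised the count at 3 h in IkL/L cells from 7 to 9 and from 3 h to 12 h from 2 to 3, and changed no other member's call besides these. Tbl1xr1, which fell in WT cells at 12 h by 0.45 (adjusted p = 0.0495), gave 0.37 (adjusted p = 0.234) with probe sets lacking the suffixes. Scaling to 7 housekeeping genes moved the median of all genes by over 0.1 in IkL/L cells from 3 h to 12 h, at -0.18, and between genotypes at 12 h, at -0.10; the share of higher calls in the former went from 58.7% to 37.9%, with the members at 2 up and 0 down under both. Where a single array decided a call, the cause was not tested. With 2 arrays a group, the number of arrays limits the precision, and of the members only Mta1 had an array under the floor.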
